A study of Mus musculus with 10 samples.

Results

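The 10 genes described here belong to the cellular response to low oxygen, were chosen by symbol and were followed in RNA-seq of the mouse melanoma line WT31 and of its liver-passaged subline WT31_P5IV. They comprise the transcription factor subunits Hif1a, Epas1 and Arnt, the prolyl hydroxylases Egln1 and Egln3, and the targets Vegfa, Bnip3, Ndrg1, Ankrd37 and P4ha1, and all 10 were found once each among 55385 gene identifiers. WT31 comes from mice with the alleles Tyr∷NrasQ61K/° and INK4a−/−, which both groups therefore carry. WT31_P5IV was made by passing WT31 through the liver 5 times: cells were injected into the tail vein, liver metastases were dissected, and the recovered cells were grown in culture and injected again. The 5 WT31 and 5 WT31_P5IV libraries were all prepared from sub-confluent cultures without drug treatment, in medium with serum and antibiotics at 5% CO2, and no low-oxygen treatment is named for any of them. The subline is a single derived line, so that the comparison is between 2 lines, and its libraries are called biological replicates without further detail on separate cultures. P values therefore measure the spread between these libraries, which may be technical.

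Cells sense oxygen through hypoxia-inducible factors (HIFs). Hif1a and Epas1 encode the paralogous alpha subunits HIF-1α and HIF-2α, and Arnt encodes the beta subunit with which either pairs to bind DNA. When oxygen is present, the prolyl hydroxylases PHD2 (Egln1) and PHD3 (Egln3) modify the alpha subunits, which marks them for the VHL ubiquitin ligase and for degradation. When oxygen is low the alpha subunits persist, enter the nucleus and bind hypoxia response elements with a short core motif. HIF activity is thus set largely at the level of protein, which mRNA counts do not measure. Egln3, and to a lesser degree Egln1, are themselves induced by HIF. Melanocytes reside in poorly oxygenated skin, and HIF activity in melanoma has been linked to vessel growth, glycolysis and spread.

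Library totals ran from 24825671 to 25750639 estimated counts in WT31 and from 24255389 to 25547694 in WT31_P5IV. Values below are CPM (counts relative to library size) with library sizes scaled by the trimmed mean of M values (TMM), as mean ± SD of n = 5 libraries. Fold changes are WT31_P5IV over WT31 on the log2 scale, with the SE, and were called at an adjusted p under 0.05. The lines differed widely: 68.5% of 13620 tested genes were called, 34.6% higher and 33.9% lower in WT31_P5IV, and the groups did not overlap for 54.1%. The melanocyte markers Mitf, Sox10, Dct, Pmel, Tyr, Tyrp1 and Mlana were detected in every library, with a summed level of 17046 to 18443 CPM in WT31 and 22228 to 25730 CPM in WT31_P5IV. They did not move together. Dct (log2 fold change 0.80), Pmel (1.22) and Tyr (0.25) were called higher, Tyrp1 (−0.96) and Sox10 (−0.14) lower, and Mitf and Mlana were not called. Markers of liver cell types were close to 0. Endothelial markers summed to 0.275 to 0.588 CPM in WT31 and 0.214 to 0.463 CPM in WT31_P5IV, with Cdh5 and Lyve1 at 0. Hepatocyte markers summed to 0.303 to 0.588 and 0.402 to 1.30 CPM, with Serpina1a and Tat at 0. Leukocyte and macrophage markers summed to 0.833 to 2.18 and 3.50 to 5.08 CPM, mostly through Cd68 (1.37 ± 0.455 against 3.73 ± 0.638 CPM), while Clec4f was at 0 and Ptprc, Adgre1 and Itgam had at most 3 counts in any library. Stellate cell and fibroblast markers summed to 1.11 to 1.53 and 1.49 to 1.81 CPM. The part of these markers in the results below was not tested.

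The promoters of the genes show where the HIF core could be read. Windows of 300 bases (250 before and 50 from the start) were taken from RefSeq on GRCm38.p6 and searched on both strands for the 2 common forms of the core, called A core (ACGTG) and, by the first letter in the same way, G core (GCGTG). The A core occurred in 19.6% of 32851 such windows in the mouse genome, the G core in 32.4%, and either in 43.8%. Of the 10 genes, 8 had a window and Epas1 and Ndrg1 were not matched. Bnip3, Ankrd37, P4ha1 and Hif1a carried most of the matches and are printed as the 250 bases before the start, 5′ to 3′ on the gene's own strand, with every match on either strand in capitals. The Bnip3 stretch lies at chr7:138909507-138909756 (minus strand), the Ankrd37 stretch at chr8:45999851-46000100 (minus), the P4ha1 stretch at chr10:59323046-59323295 (plus) and the Hif1a stretch at chr12:73907617-73907866 (plus). The RefSeq starts of Ankrd37 and Hif1a lie inside the genes as GENCODE bounds them, so these windows are not at the outer end of those genes. Those of Bnip3, Egln1 and Arnt lie slightly inside, with 13, 70 and 2 exon bases among the 250 before the start. The A core shown for Egln1 below falls within these exon bases.
Bnip3: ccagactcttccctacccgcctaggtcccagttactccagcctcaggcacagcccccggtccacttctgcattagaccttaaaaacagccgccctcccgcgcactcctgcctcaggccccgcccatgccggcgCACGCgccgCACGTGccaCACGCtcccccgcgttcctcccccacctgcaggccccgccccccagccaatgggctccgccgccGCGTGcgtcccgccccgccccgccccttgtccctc
Ankrd37: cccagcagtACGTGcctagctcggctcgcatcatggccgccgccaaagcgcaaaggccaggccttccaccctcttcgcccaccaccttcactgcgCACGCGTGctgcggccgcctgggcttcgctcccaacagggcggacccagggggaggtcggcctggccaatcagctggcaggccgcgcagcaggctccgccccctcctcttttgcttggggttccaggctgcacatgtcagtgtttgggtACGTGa
P4ha1: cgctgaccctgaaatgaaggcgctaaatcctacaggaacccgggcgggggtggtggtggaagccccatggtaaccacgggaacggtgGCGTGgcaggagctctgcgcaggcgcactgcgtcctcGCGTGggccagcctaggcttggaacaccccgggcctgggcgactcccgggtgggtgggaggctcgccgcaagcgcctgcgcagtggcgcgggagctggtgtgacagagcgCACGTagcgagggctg
Hif1a: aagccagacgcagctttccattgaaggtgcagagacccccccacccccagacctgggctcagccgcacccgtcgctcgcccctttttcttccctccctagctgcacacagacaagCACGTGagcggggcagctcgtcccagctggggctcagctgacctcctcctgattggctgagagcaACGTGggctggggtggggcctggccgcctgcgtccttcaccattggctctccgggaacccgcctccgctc

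Bnip3 had 2 matches to the A core, which are the same 6 bases read on either strand, and 3 to the G core. This palindrome, CACGTG, occurred in 7.15% of all windows. Ankrd37 had 2 matches to each core, and the letters of the pair of G cores overlap on opposite strands. P4ha1 had 1 A core, on the opposite strand and close to the start, and 2 G cores. Hif1a had 3 matches to the A core and none to the G core. A pair of the 3 is again the palindrome, which counts on both strands. For Arnt, Egln1 and Egln3, 30 bases around 1 match each are shown, with the match in capitals: the G core of Arnt at chr3:95434349-95434378 (plus strand), the A core of Egln1 at chr8:124949305-124949334 (minus) and that of Egln3 at chr12:54204086-54204115 (minus).
Arnt: ccatagtttgggGCGTGtcttctgcccagg
Egln1: gggccgtggtgtACGTGcagcgcgcgcgga
Egln3: tgtgcatctcagACGTGagatccaggtttt

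Egln1 held 1 further match, to the G core. Vegfa had 2 windows. That at the outer start held neither core, and that at a start inside the gene held 1 of each. Most of the bases searched before this inner start, 218 of them, were exon bases in GENCODE. Whether the matches of this window fall within those exon bases was not tested. The matches of all genes describe the letters of a window and not a bound site. Windows with at least one core belonged to genes that were higher (Ankrd37, P4ha1 and, at its inner start, Vegfa), to genes that fell (Hif1a, Arnt) and to genes that were not called (Bnip3, Egln1, Egln3).

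Among the 10 genes, 3 were higher in WT31_P5IV (34.6% of all tested genes were), 4 were lower (33.9%) and 3 did not pass the test, and the groups did not overlap for 6 (54.1%). The 70.0% called is close to the 68.5% of all tested genes, and the members' median absolute fold change of 0.30 on the log2 scale equals that of all genes. All 3 HIF subunits fell, neither hydroxylase passed the test, and the targets split, with Vegfa, Ankrd37 and P4ha1 higher and Ndrg1 lower. Only Epas1 was called with an absolute log2 fold change of at least 1, as were 9.19% of tested genes. All 10 genes passed the filter on low counts. As the RNA came from whole cultures, fewer cells that express a gene and less of its RNA per cell cannot be told apart.

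**Figure D1:**
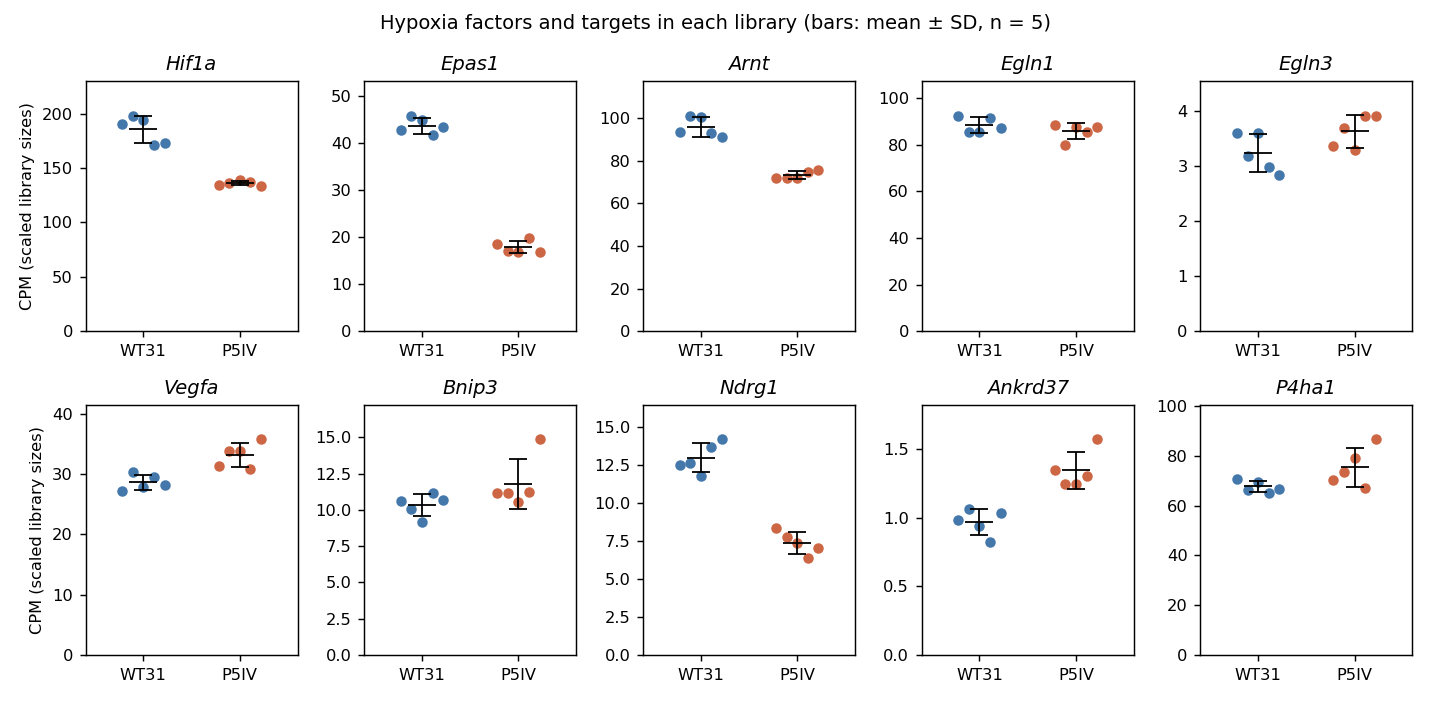
CPM of the 10 genes in each library (points; blue WT31, red WT31_P5IV), with bars for the mean and SD of 5 libraries and each axis starting at 0. Hif1a, Epas1, Arnt and Ndrg1 lie lower in every WT31_P5IV library than in any WT31 library, Vegfa and Ankrd37 lie higher, and a single WT31_P5IV library stands above the rest for Bnip3.

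Epas1, the alpha subunit that directs erythropoietin and many vascular genes, showed the largest change of the 10. It lies at chr17:86753700-86833410 on the plus strand (ENSMUSG00000024140.10). Its level was 42.6, 45.8, 44.8, 41.6 and 43.3 CPM in WT31 libraries 1 to 5 and 18.4, 17.1, 16.8, 19.8 and 16.9 CPM in WT31_P5IV libraries 1 to 5. The lowest WT31 library held more than double the highest WT31_P5IV library, and the libraries of each line lay close together. The mean fell from 43.6 ± 1.69 to 17.8 ± 1.28 CPM, by 59.2% (log2 fold change −1.29, SE 0.05, adjusted p = 3.21e-11 by edgeR's quasi-likelihood test). Only 2.64% of tested genes had a lower fold change.

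Hif1a (chr12:73901375-73947530, plus strand, ENSMUSG00000021109.13), the broadly expressed alpha subunit that drives the glycolytic part of the response, had, per length, the highest mean of the 10 in both lines. It measured 191, 198, 194, 172 and 173 CPM in WT31 and 135, 136, 139, 137 and 134 CPM in WT31_P5IV. WT31 libraries 4 and 5 were the lowest of their line and still above every subline library. The fall from 185 ± 12.5 to 136 ± 2.14 CPM amounted to 26.6% (log2 fold change −0.45, SE 0.04, adjusted p = 4.54e-07 by edgeR).

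Arnt (chr3:95434388-95497240, plus strand, ENSMUSG00000015522.18), the shared beta subunit, which also serves the aryl hydrocarbon receptor, followed the same direction. Its levels were 93.5, 101, 101, 93.1 and 91.1 CPM in WT31 and 71.7, 71.8, 71.7, 74.8 and 75.5 CPM in WT31_P5IV. The groups were separated by a gap wider than the range of either. The mean fell by 23.8%, from 95.9 ± 4.63 to 73.1 ± 1.90 CPM (log2 fold change −0.39, SE 0.04, adjusted p = 5.89e-07 by edgeR).

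The alpha subunits did not fall in proportion. In TPM, which counts transcripts per length and library, Epas1 stood at 0.196 ± 0.00921 of the Hif1a level in WT31 and at 0.109 ± 0.00803 in WT31_P5IV. The ratio lay between 0.187 and 0.208 in every WT31 library and at most 0.119 in any WT31_P5IV library. The log2 difference of the ratio was −0.85 (exact two-sided permutation test, p = 0.00794, the smallest that 5 against 5 libraries allow). Since both genes are read in the same library, the scaling of libraries cancels in this ratio.

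Neither hydroxylase passed the test. Egln1 (chr8:124908587-124949324, minus strand, ENSMUSG00000031987.6), the main oxygen-dependent hydroxylase of HIF-1α, measured 92.4, 85.5, 85.3, 91.3 and 87.0 CPM in WT31 and 88.2, 79.8, 87.3, 85.5 and 87.4 CPM in WT31_P5IV. The ranges overlap, with WT31 libraries 1 and 4 above and WT31_P5IV library 2 below the shared part. The means were 88.3 ± 3.33 and 85.6 ± 3.39 CPM (log2 fold change −0.04, SE 0.04, adjusted p = 0.336 by edgeR), with a 95% interval from −0.12 to 0.03. It was called lower with unscaled voom (−0.11) and on log2(TPM + 0.1) and log2(TPM + 1) (−0.22 and −0.21).

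Egln3 (chr12:54178981-54203860, minus strand, ENSMUSG00000035105.5), the hydroxylase most strongly induced by HIF in many cell types, was rare, with 72 to 95 counts in a library. It measured 3.61, 3.18, 3.61, 2.99 and 2.85 CPM in WT31 and 3.36, 3.69, 3.30, 3.92 and 3.92 CPM in WT31_P5IV. The upper libraries of WT31 reach into the range of the subline. The means were 3.25 ± 0.349 and 3.64 ± 0.297 CPM (log2 fold change 0.16, SE 0.10, adjusted p = 0.168 by edgeR), with a 95% interval from −0.04 to 0.36. On log2(TPM + 0.1) and log2(TPM + 1) the Egln3 difference changed sign (−0.0072 and −0.0060). The Egln3 to Egln1 ratio of TPM was 0.0507 ± 0.00571 in WT31 and 0.0586 ± 0.00586 in WT31_P5IV, a log2 difference of 0.21 whose groups overlapped (exact permutation test, p = 0.0635). Without WT31_P5IV library 1, or without library 3, the log2 difference was 0.25 (exact permutation test, p = 0.0476).

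The targets did not follow a single direction. Ndrg1 (chr15:66929318-66969640, minus strand, ENSMUSG00000005125.13), a stress-responsive gene known as a metastasis suppressor in several tumours, fell most. It measured 12.5, 12.7, 11.8, 13.7 and 14.2 CPM in WT31 and 8.37, 7.76, 7.40, 6.40 and 7.02 CPM in WT31_P5IV. Every subline library was below every parental one. The mean fell from 13.0 ± 0.966 to 7.39 ± 0.743 CPM, by 43.1% (log2 fold change −0.81, SE 0.08, adjusted p = 2.86e-07 by edgeR).

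Vegfa (chr17:46016993-46032369, minus strand, ENSMUSG00000023951.17), the principal growth factor for blood vessels, was moderately higher. Its levels were 27.2, 30.4, 27.8, 29.5 and 28.2 CPM in WT31 and 31.4, 33.9, 33.9, 30.8 and 35.8 CPM in WT31_P5IV. The groups did not overlap, but WT31 library 2 and WT31_P5IV library 4 were nearly level. The mean rose by 15.8%, from 28.6 ± 1.27 to 33.2 ± 2.03 CPM (log2 fold change 0.21, SE 0.05, adjusted p = 0.00168 by edgeR). The call was lost on log2(TPM + 0.1) and log2(TPM + 1) (0.18 on both), and the fold change ran from 0.14 with unscaled voom to 0.32 with a transcript length offset.

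Ankrd37 (chr8:45996902-46005707, minus strand, ENSMUSG00000050914.16), a small ankyrin repeat gene and a direct HIF target, was detected by 21 to 28 counts in WT31 libraries and by 29 to 38 in those of WT31_P5IV. This corresponds to 0.980, 1.06, 0.941, 0.825 and 1.03 CPM in WT31 and 1.35, 1.24, 1.25, 1.31 and 1.57 CPM in WT31_P5IV. The groups did not overlap, although WT31 library 2 and WT31_P5IV library 2 differed by a single count. The mean rose by 38.8%, from 0.967 ± 0.0914 to 1.34 ± 0.134 CPM (log2 fold change 0.47, SE 0.15, adjusted p = 0.0102 by edgeR). Its exons share 57 bases with the exons of Ufsp2 on the opposite strand, which fell from 35.3 ± 1.09 to 26.9 ± 0.861 CPM (log2 fold change −0.39), and 349 bases with those of Lrp2bp, which had 1 to 11 counts. The call was lost with a transcript length offset (0.25) and with no filter beyond 1 count (0.42), and on log2(TPM + 0.1) (0.12) and log2(TPM + 1) (0.086).

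P4ha1 (chr10:59323296-59373304, plus strand, ENSMUSG00000019916.14), the catalytic subunit of the enzyme that hydroxylates prolines of collagen, passed the threshold narrowly. It measured 70.8, 66.5, 69.7, 65.1 and 66.8 CPM in WT31 and 70.4, 73.5, 79.3, 67.1 and 86.7 CPM in WT31_P5IV. WT31_P5IV libraries 1 and 4 lay within the range of WT31. The means were 67.8 ± 2.36 and 75.4 ± 7.76 CPM (log2 fold change 0.15, SE 0.06, adjusted p = 0.0328 by edgeR), and the call was lost when WT31 library 2, 3, 4 or 5 or WT31_P5IV library 3 or 5 was left out (0.09 to 0.15). It was also lost with unscaled voom (0.079), with no filter beyond 1 count (0.098) and with a transcript length offset (0.15), and on TPM the difference changed sign (−0.0015 and −0.0013).

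Bnip3 (chr7:138890836-138909519, minus strand, ENSMUSG00000078566.8), a mitochondrial receptor for mitophagy, was not called. It measured 10.6, 10.0, 9.18, 11.2 and 10.7 CPM in WT31 and 11.1, 11.2, 10.6, 11.2 and 14.9 CPM in WT31_P5IV. WT31_P5IV library 5 was high, and the other subline libraries lay close to the upper end of WT31. The means were 10.3 ± 0.755 and 11.8 ± 1.73 CPM (log2 fold change 0.19, SE 0.09, adjusted p = 0.0691 by edgeR). Bnip3 was called higher with upper-quartile scaling (0.22), with replicate numbers as a block (0.19) and without WT31_P5IV library 3 (0.23). On log2(TPM + 0.1) and log2(TPM + 1) the difference changed sign (−0.021 and −0.019). The value is also uncertain because 57.0% of the 31-base words of Bnip3 transcripts occur in other annotated genes, chiefly in the lincRNA AC160336.1 (1053 of 2255 words), to which the counting could have assigned reads. AC160336.1 fell from 259 ± 11.9 to 155 ± 2.88 CPM (log2 fold change −0.74), and a sum of Bnip3 and its word-sharing genes had a log2 fold change of −0.69. AC160336.1 had 3555 to 7188 counts per library, against 234 to 360 for Bnip3. The sum therefore follows AC160336.1 and gives no estimate for Bnip3. How reads were divided between them was not tested. For the remaining genes, shared words amounted to 21.4% in Ankrd37, 7.32% in Ndrg1, 6.72% in Hif1a and under 1% in the others.

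**Figure D2:**
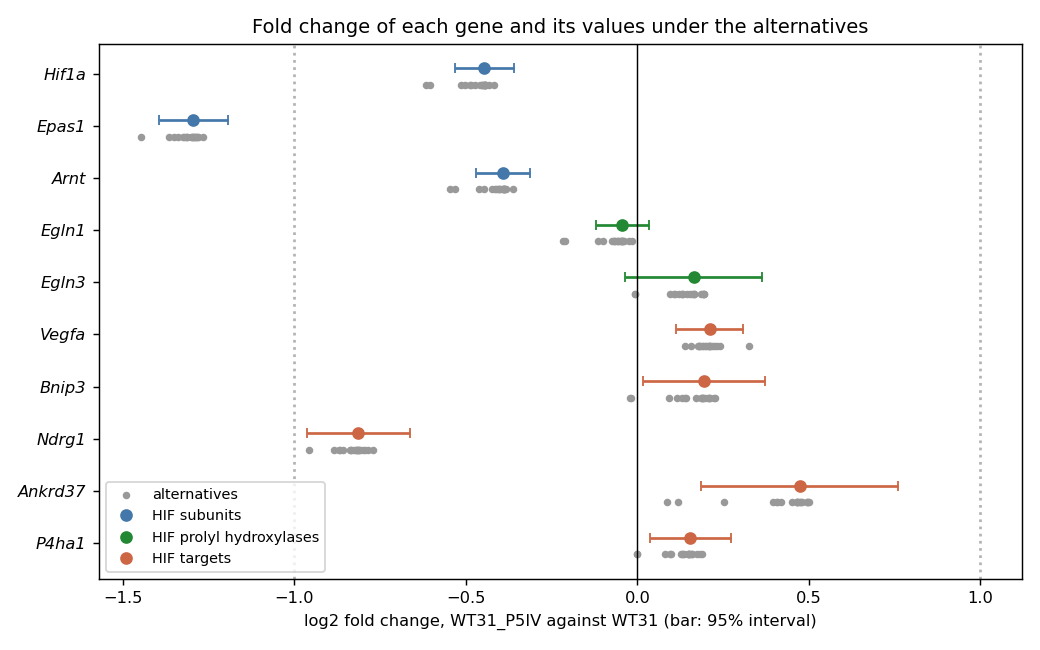
Log2 fold change of each gene, WT31_P5IV against WT31, with its 95% interval from edgeR (coloured) and the values under alternative processing (grey), apart from the sums with word-sharing genes. Dotted lines mark an absolute value of 1. Hif1a, Epas1, Arnt and Ndrg1 stay well below 0 throughout, whereas P4ha1, Bnip3 and Egln3 reach 0.

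The calls of higher genes depended on the scale. On TPM with limma, the log2 fold change of the median gene went from 0.01 to −0.14 (pseudocount 0.1), the median shift of a gene was −0.17, and none of the 10 genes was called higher. Relative to the median of all tested genes, the differences kept their direction. With TMM scaling Vegfa was 0.20, Ankrd37 0.46 and P4ha1 0.14 above the median gene, and on log2(TPM + 0.1) they were 0.32, 0.26 and 0.14 above it. Epas1 was 1.30 and 1.31 below the median gene on these scales (values −1.30 and −1.31), Ndrg1 stood at −0.82 on both, Hif1a at −0.46 and −0.48 and Arnt at −0.40 and −0.41.

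WT31_P5IV library 5 touched several of these results. It was the highest of its line for Vegfa, Bnip3, Ankrd37 and P4ha1, that is for 4 of 5 targets, and for 6 of the 10 genes. Among 52 further tested HIF targets it was the highest for 17 (32.7%), and among all tested genes for 19.3%. In WT31, library 5 was the highest for 34.6% of the further targets and 27.1% of all genes. Without WT31_P5IV library 5 the log2 fold change of Vegfa was 0.18 (adjusted p = 0.00684 by edgeR) and that of Ankrd37 0.41 (adjusted p = 0.0429), so both remained called. P4ha1 was then no longer called (0.09, adjusted p = 0.112), and Bnip3 was at 0.09 (adjusted p = 0.233). Hif1a, Epas1, Arnt and Ndrg1 were little moved, at −0.44, −1.28, −0.41 and −0.80.

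**Figure D3:**
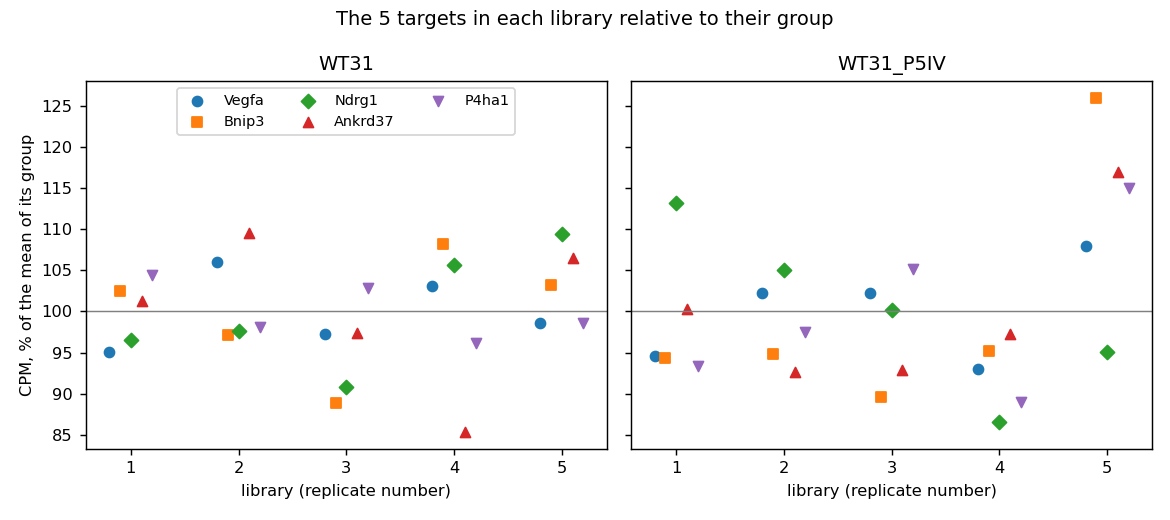
CPM of the 5 targets in each library as a percentage of the mean of its own line, by replicate number, which carries no order. In WT31_P5IV library 5, Bnip3, Ankrd37, P4ha1 and Vegfa lie above all other libraries of the line while Ndrg1 lies below its mean.

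Levels of different genes were compared per length. In WT31 the order of mean TPM was Hif1a (62.8), Arnt (40.7), Egln1 (38.8), P4ha1 (36.4), Vegfa (22.8), Epas1 (12.3), Bnip3 (11.8), Ndrg1 (7.29), Ankrd37 (2.73) and Egln3 (1.97). Arnt and Egln1, and Epas1 and Bnip3, differed by less than the SD of their difference over libraries. In WT31_P5IV the order was Hif1a (40.8), P4ha1 (36.5), Egln1 (33.4), Arnt (27.8), Vegfa (25.8), Bnip3 (11.6), Epas1 (4.43), Ndrg1 (3.71), Ankrd37 (2.93) and Egln3 (1.95), with P4ha1 and Egln1, and Arnt and Vegfa, within that SD. Arnt moved behind Egln1 and P4ha1 and Epas1 fell behind Bnip3. In both lines the TPM of Hif1a was above that of Arnt in all 5 libraries, and Egln1 stood far above Egln3. Against P4ha1, Hif1a led in 4 of 5 WT31_P5IV libraries, with overlapping ranges.

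**Figure D4:**
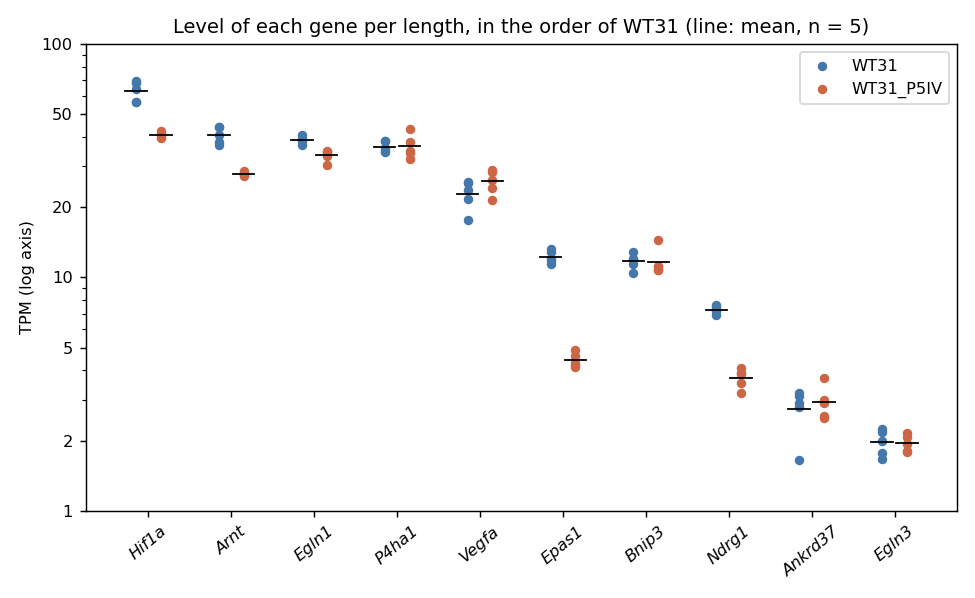
TPM of each gene in each library on a log axis, in the order of the WT31 means (short lines: mean of 5 libraries). Hif1a leads and Egln3 is last in both lines, and the largest gap between the lines is that of Epas1 (12.3 against 4.43 TPM).

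The ratio of count to TPM follows the mean length of the transcripts counted for a gene, and gives a readout separate from the level. Over all genes, limma called 35.6% of 13484 such ratios. Epas1, Egln1 and Egln3 were called at a log2 difference of 0.02 each, but Egln1 and Egln3 have a single annotated transcript, and none of the 10 was called when the ratios were centred on genes with a single transcript instead. For Vegfa, whose transcripts encode isoforms of differing heparin binding, the inferred length was 2055 ± 271 bases in WT31 and 1845 ± 121 bases in WT31_P5IV, with overlapping groups (adjusted p = 0.311 by limma). For Ankrd37 it was 593 ± 113 and 672 ± 129 bases (adjusted p = 0.448 by limma). A different mix of transcripts was thus not detectable for these genes.

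The wider pathway was described through 10 lists of 90 further gene identifiers, of which 71 were tested. Of these, 21 were higher (29.6%) and 32 lower (45.1%), against 34.6% and 33.9% of all tested genes, with a median log2 fold change of −0.11 beside 0.01 for all genes. On log2(TPM + 0.1) and log2(TPM + 1), 12 and 13 were called higher and 40 and 41 lower. Lists on the sensing and assembly of HIF contained no gene that was higher by the main test, and with no filter beyond 1 count 1 of hydroxylation and the VHL ligase and 1 of the coactivators and competitors were. Both tested paralogs of the subunits were lower, Arnt2 (log2 fold change −0.11, adjusted p = 0.0110 by edgeR) and the clock factor Arntl (−0.16, adjusted p = 0.0307, lost with upper-quartile scaling and without WT31 library 3 or WT31_P5IV library 1, 2 or 5), and Hif3a was near 0 with at most 1 count in a library. Of 9 genes of hydroxylation and the VHL ligase, Eloc, the elongin C adaptor of the ligase, fell from 83.7 ± 3.25 to 61.9 ± 2.30 CPM (−0.43, adjusted p = 1.67e-07), and Hif1an, which hydroxylates an asparagine of the alpha subunits, fell from 56.2 ± 3.90 to 48.6 ± 2.08 CPM (−0.21, adjusted p = 0.00169). The other 7 were not called, among them Vhl itself (31.5 ± 1.15 and 32.9 ± 0.306 CPM) and the third hydroxylase Egln2 (44.5 ± 3.31 and 47.2 ± 2.41 CPM). Without WT31_P5IV library 5, or with no filter beyond 1 count, 4 were called lower, and 5 with unscaled voom. Of 4 coactivators and competitors, 3 were lower. Cited2, which competes with HIF for its coactivators, fell from 41.8 ± 2.88 to 27.8 ± 1.40 CPM (−0.59, adjusted p = 1.71e-07), Pkm from 1431 ± 72.7 to 1136 ± 33.3 CPM (−0.33, adjusted p = 4.29e-06), and Crebbp, named here after its value was seen, stood at −0.29.

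Secreted angiogenic factors, the list nearest to Vegfa, had 4 higher (57.1%) and 1 lower (14.3%) of 7, against 34.6% and 33.9% of all tested genes. Without WT31 library 2 or 3, or WT31_P5IV library 1 or 4, as with unscaled voom and with a transcript length offset, only 2 were called higher. Without WT31 library 2 or 3, or WT31_P5IV library 2, 2 were called lower. Angpt2, which destabilises vessels, rose from 0.601 ± 0.0680 to 1.40 ± 0.293 CPM (log2 fold change 1.23, adjusted p = 4.98e-05 by edgeR), on 14 to 18 counts in WT31 libraries. The call was lost on log2(TPM + 0.1) (0.82, adjusted p = 0.0634 by limma), and the difference was 0.39 on log2(TPM + 1). Vegfc (0.33) and Vegfb (0.17), named after their values were seen, were also called higher. Stc2, a secreted glycoprotein, fell from 2.19 ± 0.317 to 0.166 ± 0.0502 CPM (−3.72, adjusted p = 2.30e-09), with 2 to 5 counts left in the subline. Of the VEGF receptors, Flt1, Kdr and Flt4 were too rare to test, and both tested co-receptors were lower. Nrp2 fell from 4.29 ± 0.898 to 0.768 ± 0.122 CPM (−2.48, adjusted p = 1.58e-08) and Nrp1 from 34.2 ± 4.04 to 27.9 ± 2.45 CPM (−0.29, adjusted p = 0.00410). On log2(TPM + 1), which compresses differences of rare genes, Stc2 stood at −0.78 and Nrp2 at −0.80, both still called by limma.

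Mitochondrial targets, the list nearest to Bnip3, had 5 lower (71.4%) and 1 higher (14.3%) of 7, against 33.9% and 34.6% of all tested genes. Bnip3l, the paralogous mitophagy receptor, fell from 106.9 ± 1.99 to 75.2 ± 3.47 CPM (log2 fold change −0.51, adjusted p = 2.29e-08 by edgeR), and Fam162a, a proapoptotic target, from 24.4 ± 2.38 to 18.6 ± 1.20 CPM (−0.39, adjusted p = 0.000150). The gene that was higher was Pdk1 (0.37, adjusted p = 0.00285), the kinase that holds back pyruvate dehydrogenase, named after its value was seen. The paralogs of Ndrg1 fell with it: Ndrg3 from 151.9 ± 4.98 to 102.7 ± 3.25 CPM (−0.56, adjusted p = 4.55e-09) and Ndrg4 from 1.63 ± 0.202 to 0.569 ± 0.207 CPM (−1.52, adjusted p = 1.39e-05), while Ndrg2 was too rare to test. On log2(TPM + 1) Ndrg4 stood at −0.52, still called by limma.

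The list of P4ha1 holds subunits of collagen hydroxylases and lysyl oxidases. All 5 of its tested genes were higher, against 34.6% of all tested genes, with a median log2 fold change of 0.71. P4ha2, the paralogous catalytic subunit, rose from 3.96 ± 0.469 to 7.44 ± 1.05 CPM (0.91, adjusted p = 3.11e-06 by edgeR) and the lysyl hydroxylase Plod3 from 54.8 ± 2.20 to 99.7 ± 4.64 CPM (0.86, adjusted p = 2.48e-10). Plod1 (0.71), Plod2 (0.44) and P4hb (0.37), named after their values were seen, were the other tested members, while the lysyl oxidases Lox and Loxl2 and the subunit P4ha3 were not tested. On log2(TPM + 1) P4ha2 stood at 0.57, still called by limma. P4ha1 (0.15) had a smaller fold change than any of the 5 tested genes of the list.

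Glycolytic targets had 9 lower (56.25%) and 4 higher (25%) of 16 identifiers, and 7 lower with upper-quartile scaling. Of all tested genes, 33.9% were lower and 34.6% higher. Aldoa has 2 identifiers and is counted on both sides. Its abundant identifier was lower (log2 fold change −0.18), and a rare one with 14 to 40 counts was higher (0.81). Slc2a1, the glucose transporter GLUT1, was among the higher (log2 fold change 1.01, adjusted p = 2.97e-09 by edgeR), and Aldoc fell most (−0.86, adjusted p = 1.71e-09), from 22.0 ± 1.03 to 12.1 ± 0.414 CPM. Further common targets were split, with 7 higher and 6 lower of 17. Car12, a carbonic anhydrase, had at most 3 counts in any WT31 library and 24 to 35 in WT31_P5IV, so that it was at least 10.7-fold higher against 3 counts per WT31 library. Bhlhe40, a transcriptional repressor induced by hypoxia, rose from 34.2 ± 0.977 to 51.6 ± 3.87 CPM (0.59, adjusted p = 9.15e-08). On TPM these counts of higher genes were smaller, with 2 glycolytic targets, 4 further targets, 0 mitochondrial targets and 1 or 2 secreted factors called higher, and 5 genes of hydroxylation and the VHL ligase were then called lower.

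**Figure D5:**
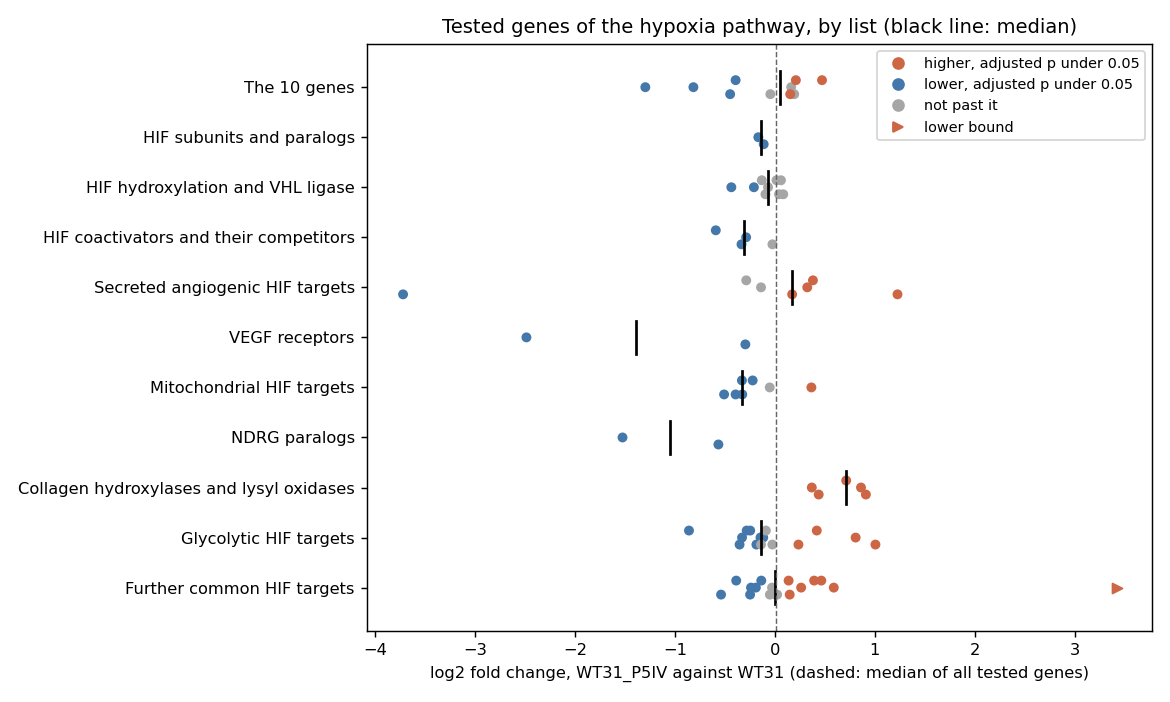
Log2 fold change of the 10 genes and of the tested genes of each list (points; red higher, blue lower, grey not called by edgeR), with the list's median as a black line and the median of all tested genes as a dashed line. The triangle is the lower bound of Car12. The 5 tested genes of the collagen hydroxylase list all lie to the right and the tested VEGF receptors and NDRG paralogs to the left.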

How the data were processed

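RNA of cultured cells, in 5 WT31 and 5 WT31_P5IV libraries, was sequenced at BGI (a BGISeq-500 protocol per the labels, an Illumina instrument per the series design). The authors trimmed reads with Trim Galore 0.6.4 and quantified them with kallisto (0.4.6 per the submitters' processing notes) on GRCm38.p6, and the annotation release and strand setting are not given in the sources used here. The deposited estimated counts per gene are not normalized and were rounded. The deposited TPM are the authors' values relative to transcript length and library, and served for levels between genes, ratios and length. Identifiers were matched to GENCODE M21, in which Hif1a and the other genes each have 1 identifier. Genes passing filterByExpr were tested with edgeR 4.0.16 (quasi-likelihood, TMM, Benjamini-Hochberg over 13620 genes, R 4.3.3), and length ratios with limma 3.58.1. A procedure check on simulated counts was run first. Exact permutation and sign-flip tests went through all arrangements in Python 3.11.15 with numpy 2.4.6. The estimated count depth of 24255389 to 25750639 per library limits rare genes such as Ankrd37 most. Depth-based bounds (3 counts) cover counting error only.

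The members and lists were chosen with earlier results of these data known. Named genes were all members and, of each list, every called gene with an absolute log2 fold change of at least 1, the 2 called genes of largest change, and the partners by role Egln2, Hif1an, Vhl, Arnt2, Hif3a, Bnip3l and P4ha2. Alternatives were DESeq2 1.42.0, limma voom (TMM or unscaled), edgeR scaled by the upper quartile, other filters (1 count in all, or 10 counts in every library), the replicate block, a length offset, limma on log2(TPM + 0.1) and log2(TPM + 1), and leaving out each library. Length centring on single-transcript genes and sums over word-sharing genes were added after seeing the data.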

Additional observations from a re-analysis of the deposited data

Results flagged for a closer look

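In 32 named genes, each line was searched for a library set apart from the other 4 by Dixon's criterion at 95%, and 3 of 64 groups had one (4.69%), where chance gives about 1 in 20. Bnip3 stood at 14.9 CPM in WT31_P5IV library 5, against 10.6 to 11.2 CPM in the other libraries of the line. Angpt2 was low in WT31_P5IV library 2, at 0.901 CPM against 1.43 to 1.61 CPM. Ndrg4 was high in WT31_P5IV library 1, at 0.925 CPM against 0.413 to 0.558 CPM, on 10 to 22 counts.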

How the results depend on the processing

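Hif1a, Epas1, Arnt and Ndrg1 kept their direction and call in every alternative run, with log2 fold changes of −0.62 to −0.42, −1.45 to −1.27, −0.55 to −0.36 and −0.96 to −0.77. On TPM (pseudocount 0.1, then 1) Egln1 was called at −0.22 and −0.21, Vegfa was not called (0.18 and 0.18), nor was Ankrd37 (0.12 and 0.086), and Egln3 (−0.0072 and −0.0060), Bnip3 (−0.021 and −0.019) and P4ha1 (−0.00152 and −0.00134) changed sign. Members called higher were then 0 and 0, and other hypoxia genes called higher 12 and 13. Voom without scaling called Egln1 (−0.11) and not P4ha1 (0.079). With no filter beyond 1 count, and with a length offset, 1 member was higher each time, without Ankrd37 (0.42 and 0.25) and P4ha1 (0.10 and 0.15). Bnip3 was called with upper-quartile scaling (0.22). Its sum with word-sharing genes was −0.69, which follows AC160336.1 and gives no estimate for Bnip3. Leaving out 1 library gave 0.093 to 0.23 for Bnip3 (called without WT31_P5IV library 3), 0.095 to 0.19 for P4ha1 (lost without WT31 library 2, 3, 4 or 5 or WT31_P5IV library 3 or 5) and 0.17 to 0.26 for the Egln3 to Egln1 log2 ratio, which passed without WT31_P5IV library 1 or 3. Centred on single-transcript genes, 0 members had a changed length. Among named genes, Egln2 (−0.062 and −0.061) and Vhl (−0.083 and −0.079) changed sign on TPM, and Vhl (−0.0073) without scaling. The cause was not tested.

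Replicate numbers, taken from the titles (the WT31 file labels number otherwise), did not pair the libraries (r of same-numbered libraries −0.0960 to 0.178, 2 of 5 WT31 libraries closest to their own number). The replicate block called 9380 genes against 9327 without it, called Bnip3 at 0.19 and 4 genes of hydroxylation and the VHL ligase lower (2 without it), and for the Epas1 to Hif1a log2 ratio of −0.85 gave an exact sign-flip p of 0.0625, the smallest that 5 pairs allow.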
